A study of Mus musculus with 8 samples.

Results

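Dppa2, Dppa3, Dppa4, Dppa5a, Zfp42, Prdm14, Tcl1, Tdh, Utf1 and Fbxo15 are genes that are commonly read as markers of naïve mouse embryonic stem cells (ESCs) but that stand outside the 12-component network of core pluripotency factors on which the study built its models. For Utf1 the study differs: it places this gene among those enriched in primed epiblast stem cells and low in naïve ESCs. They were chosen by name, as the rows of the deposited expression files that carry these 10 symbols, out of 38991 genes. RNA was sequenced from 8 cultures of Rex1GFPd2 ESCs, a line of strain 129 with a short-lived GFP reporter at the Rex1 (Zfp42) locus. All of the cells had spent 6 passages in 2i, the pair of inhibitors CH (CHIR99021, 3 μM, against GSK3) and PD (PD0325901, 1 μM, against Mek), and were then kept for 5 more passages, to passage 11, on gelatin in serum-free N2B27 with splitting every 3 days. There were 2 cultures in each of 4 conditions: 2i+LIF (CH, PD and the cytokine LIF together), 2i (no LIF), LIF+PD (no CH) and CH+LIF (no PD). No condition was free of all inhibitors, no differentiated cells were included, and the cultures come from a single line, so the 2 values of a condition describe the spread between these cultures only. The unit throughout is FPKM, fragments per kilobase of transcript scaled to library size. It takes length into account, but levels of different genes can be compared in it only roughly. For some of the 10 genes, Dppa5a most of all, FPKM lay outside its own deposited bounds.

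Naïve ESCs correspond to the epiblast of the pre-implantation embryo, and they are held there by LIF, which acts through Stat3, by inhibition of GSK3, which relieves Tcf7l1 repression, and by inhibition of the Mek/Erk pathway, which otherwise drives cells out of this state. Besides the transcription factors that carry out this control, the naïve state has a set of abundant or stage-restricted transcripts with quite different products. Dppa3 (also called Stella) and Prdm14 are linked to the low DNA methylation of naïve cells and of primordial germ cells, Dppa2 and Dppa4 are paired chromatin proteins, Utf1 is a chromatin-bound protein, Zfp42 is a zinc-finger protein of the YY1 family, Tcl1 is a coactivator of Akt kinases, Tdh is the mitochondrial enzyme threonine dehydrogenase, Fbxo15 is an F-box protein, and Dppa5a is an RNA-binding protein with a KH domain.

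Sequence upstream of 3 of the 10 genes, Zfp42, Tcl1 and Utf1, was at hand in RefSeq, and these 3 are shown. Their responses differed: Utf1 was lowest in 2i+LIF, Tcl1 was highest in 2i+LIF, and Zfp42 varied least. A link between motifs and responses was not tested. The stretches lie before every annotated start of the gene in build GRCm38.p6, at chr8:43307010-43307259 for Zfp42 (minus strand, 250 bases), chr12:105222794-105222987 for Tcl1 (minus strand, 194 bases) and chr7:139943606-139943788 for Utf1 (plus strand, 183 bases). Each is written 5′ to 3′ in the direction of the gene, and capitals mark the letters that matched a searched motif on either strand.
Zfp42: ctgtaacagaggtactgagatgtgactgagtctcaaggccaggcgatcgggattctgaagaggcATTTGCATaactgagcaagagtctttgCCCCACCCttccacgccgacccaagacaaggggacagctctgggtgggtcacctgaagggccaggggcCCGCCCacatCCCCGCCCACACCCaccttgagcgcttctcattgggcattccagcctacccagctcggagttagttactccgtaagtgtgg
Tcl1: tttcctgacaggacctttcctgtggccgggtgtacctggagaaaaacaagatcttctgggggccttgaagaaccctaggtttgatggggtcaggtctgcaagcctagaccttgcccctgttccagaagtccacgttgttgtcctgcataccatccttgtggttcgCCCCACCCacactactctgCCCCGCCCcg
Utf1: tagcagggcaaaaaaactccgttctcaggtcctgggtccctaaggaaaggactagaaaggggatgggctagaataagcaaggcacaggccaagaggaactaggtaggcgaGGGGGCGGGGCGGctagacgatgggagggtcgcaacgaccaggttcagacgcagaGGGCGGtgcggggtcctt

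Among these 3 sequences, the octamer ATTTGCAT, the motif of POU factors such as Oct4, was present in that of Zfp42, and 1.6% of the 32851 upstream windows of 250 bases in the table held it. The KLF motif CCNCNCCC was found 3 times in Zfp42, 2 times in Tcl1 and 2 times in Utf1, and 45.9% of all windows held it. Overlapping matches were counted separately: 2 of the 3 in Zfp42 overlap each other, as do the 2 in Utf1. The GC box GGGCGG, which overlaps the KLF motif in all 3 sequences, was found 2 times in Zfp42, 1 time in Tcl1 and 3 times in Utf1, against 32.7% of all windows with at least 1. In Utf1, 2 of these 3 overlap each other. The Tcl1 and Utf1 stretches are shorter than the windows of 250 bases behind these shares. The letters of the STAT motif TTCNNNGAA (7.02% of windows), the ESRRB motif AAGGTCA (4.08%), the TCF motif ATCAAAG (3.21%), the SOX motif ACAATG (10.7%) and the TATA motif TATAAA (12.4%) were not in these stretches. The 250 bases before the RefSeq start held 14 CpG dinucleotides in Utf1, 9 in Zfp42 and 7 in Tcl1, and the median over all windows was 6.

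The number of reads behind the FPKM values is unknown. The sum of FPKM was between 715575 and 875458 per culture, between 11659 and 12109 genes reached an FPKM of 1, and the correlation of replicates across genes on the log2 scale was 0.974 to 0.983. The 5 ESC markers Pou5f1, Sox2, Nanog, Sall4 and Zfp42 were each at an FPKM of at least 1 in all cultures, with a summed FPKM of 2899 to 3463. The 6 fibroblast markers summed to 1.23 to 4.99, with Col3a1 and Dcn at 0 in all cultures, and the 6 primitive endoderm markers summed to 1.51 to 3.34. Sums of other lineage lists moved with the conditions. The 4 mesoderm markers were at 19.6 to 37.4 in CH+LIF and 9.38 to 16.3 in 2i. They were at 5.22 to 6.18 in 2i+LIF and 1.78 to 1.99 in LIF+PD. T carried the sum in CH+LIF (mean 27.4) and was at 0.185 in LIF+PD. Kdr was instead highest in LIF+PD (1.39), and Mixl1 and Mesp1 stayed below 1. The 4 neural markers were at 19.2 to 19.7 in LIF+PD and 10.6 to 12.4 in 2i. They were at 5.19 to 6.08 in 2i+LIF and 3.30 to 3.90 in CH+LIF. In 2i, Pax6 was at 8.50 against 0.518 in 2i+LIF, while Nes was at 2.96 against 4.50. The 6 trophectoderm markers were at 62.6 to 73.7 in LIF+PD and 26.9 to 27.6 in CH+LIF, and these genes did not move together either. Tfap2c (mean 49.1) and Gata3 (16.4) carried the sum in LIF+PD, where Cdx2 was at 0.0696 against 9.07 in 2i+LIF, and Eomes was highest in CH+LIF, at 9.41. The part of these lineage genes, or of cells expressing them, in the results below was not tested, and in RNA from whole cultures fewer cells that express a gene and less RNA per cell cannot be told apart.

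All 10 genes were expressed in every culture, and all 10 were among the 12927 genes tested, those that reached an FPKM of 1 in 2 or more cultures. Their levels spanned a wide range, from 2.30 for Dppa3 in a CH+LIF culture to 2419 for Dppa5a in a 2i culture. Dppa5a and Tdh were the most abundant, Zfp42, Fbxo15 and Utf1 followed, and Dppa2, Dppa4, Prdm14 and Dppa3 were between 20.4 and 66.0 in 2i+LIF. Differences were tested with limma on log2(FPKM + 1) with the 4 conditions in a single fit, and a difference was called at a Benjamini-Hochberg adjusted p below 0.05 over all genes tested. The pseudocount of 1 shrinks log2 differences of weakly expressed genes. A moderated F test for any difference among the 4 conditions called 8 of the 10 genes, all but Dppa2 (adjusted p = 0.0851) and Dppa5a (adjusted p = 0.0827), against 46.8% of all genes tested.

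**Figure D1:**
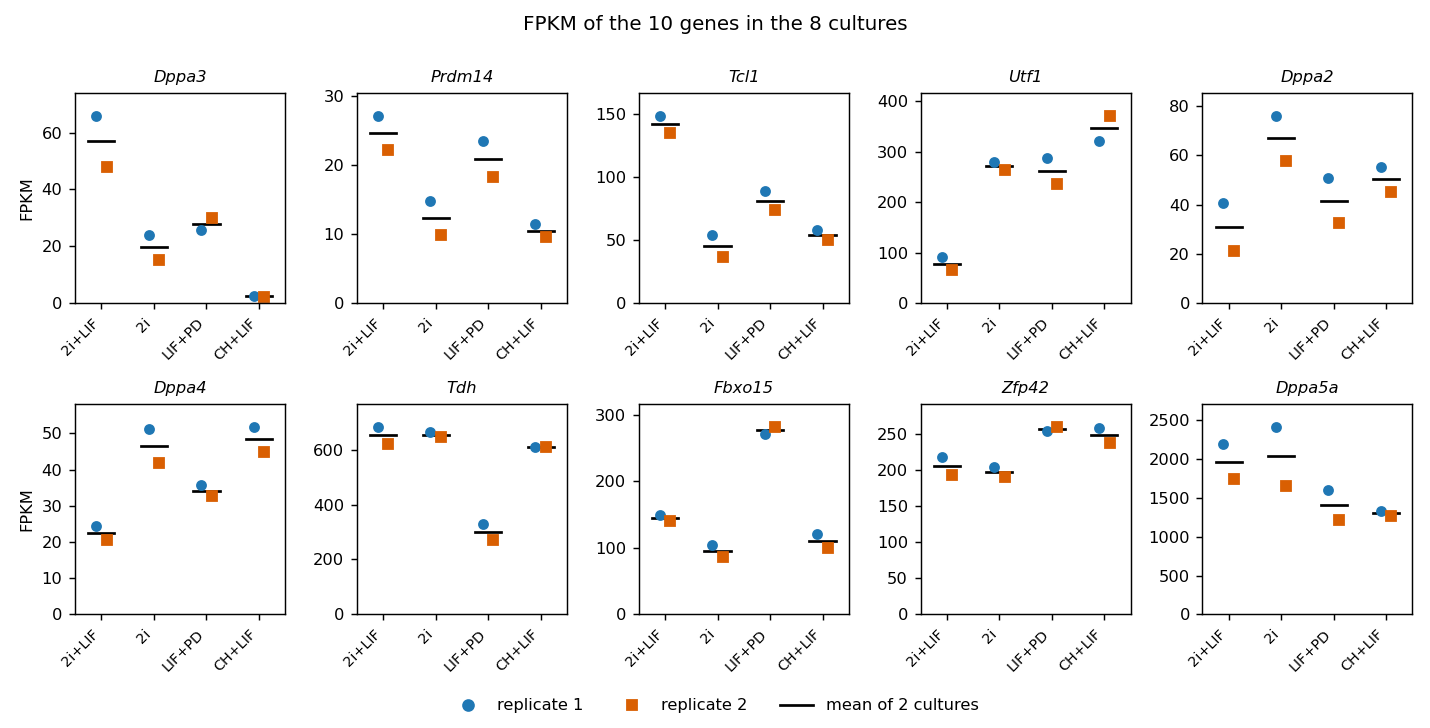
FPKM (vertical axes, each from 0 and with its own scale) of the 10 genes in the 4 conditions (horizontal axes). Points are single cultures, circles for replicate 1 and squares for replicate 2, and bars are means of 2 cultures. Dppa3 and Tcl1 were highest in both 2i+LIF cultures, Utf1 and Dppa4 lowest there, Tdh was lowest and Fbxo15 highest in LIF+PD, and Zfp42 stayed between 190.3 and 259.7.

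Each medium that lacked 1 of the 3 components differed from 2i+LIF in several of these genes, up as well as down. The word without here means absent relative to 2i+LIF. All cells had come from 2i, so the 2i cultures had no LIF taken away, and the other conditions had LIF added. Without LIF, 6 of the 10 genes were called, 2 higher (Dppa4, Utf1) and 4 lower (Dppa3, Prdm14, Tcl1, Fbxo15), against 18.6% of all genes tested (9.77% higher, 8.86% lower). Without CH, 7 were called, 4 higher (Dppa4, Zfp42, Utf1, Fbxo15) and 3 lower (Dppa3, Tcl1, Tdh), against 25.2% (14.8% higher, 10.4% lower). Without PD, 5 were called, 2 higher (Dppa4, Utf1) and 3 lower (Dppa3, Prdm14, Tcl1), against 25.4% (12.2% higher, 13.3% lower). The background split depends on scaling: in TPM, the share of higher among all calls was 61.4%, 74.8% and 74.1% without LIF, CH and PD, against 52.5%, 58.6% and 47.9% as deposited, and for the 10 genes without PD it was 57.1% against 40%. The cultures of the groups compared did not overlap for 7, 8 and 10 of the 10 genes, against 61.0%, 66.6% and 67.0% of all genes tested. The median absolute log2 difference of the 10 genes was 0.99 without LIF, 0.69 without CH and 0.91 without PD, and over all genes tested it was 0.24, 0.27 and 0.28. These 3 comparisons share the 2i+LIF cultures, so they are not independent of each other.

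**Figure D2:**
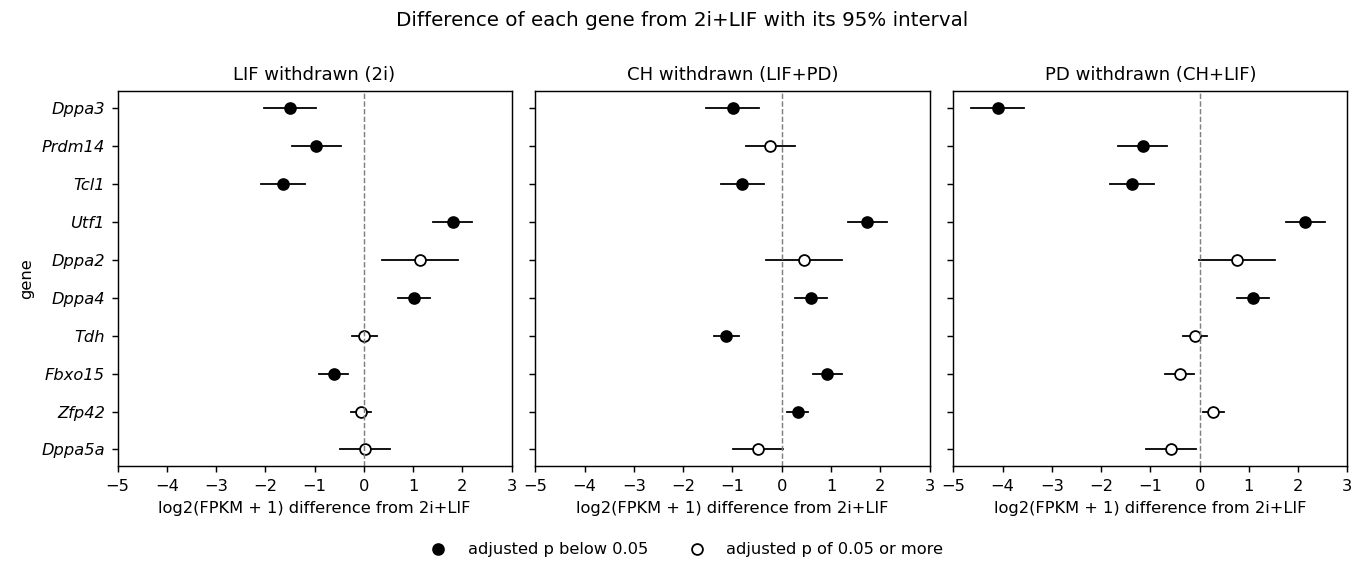
Difference in log2(FPKM + 1) from 2i+LIF (horizontal axes) for each of the 10 genes (vertical axis) in 2i, LIF+PD and CH+LIF, with 95% intervals from limma. Filled points have an adjusted p below 0.05. In the panel titles, withdrawn means absent relative to 2i+LIF. Dppa3 in CH+LIF lies farthest to the left, at -4.10, and Utf1 in CH+LIF farthest to the right, at 2.15.

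Dppa3, Prdm14 and Tcl1 were most abundant in 2i+LIF. For Dppa3 and Tcl1 both 2i+LIF cultures lay above the other 6, which held for 9.64% of all genes tested, and both genes were called lower in all 3 comparisons with 2i+LIF, which held for 2.08%. Dppa3, whose product binds Uhrf1 and hinders maintenance methylation, had the widest range of the 10 genes. Its FPKM was 66.0 and 47.9 in 2i+LIF, 24.1 and 15.3 in 2i, 25.7 and 29.9 in LIF+PD, and 2.37 and 2.30 in CH+LIF. No 2 conditions overlapped, and both CH+LIF cultures stood far below all others. The mean was 24.4-fold lower without PD (log2 difference -4.10, SE 0.23, adjusted p = 0.000233), 2.89-fold lower without LIF (-1.50, SE 0.23, adjusted p = 0.00518) and 2.05-fold lower without CH (-0.997, SE 0.23, adjusted p = 0.0193). CH+LIF was also 8.45-fold below 2i (-2.60, adjusted p = 0.000546) and 11.9-fold below LIF+PD (-3.10, adjusted p = 0.000177), whereas LIF+PD and 2i were not called different (0.50, 95% interval -0.03 to 1.04, adjusted p = 0.155). The call without CH was lost when replicate 1 of 2i+LIF or either LIF+PD culture was left out (adjusted p up to 0.109). Dppa3 lies on chromosome 6 (122626410 to 122630272, plus strand).

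Prdm14 encodes a PR-domain protein that represses de novo DNA methyltransferases and FGF receptors in ESCs, and lies on chromosome 1 (13113457 to 13127163, minus strand). Its FPKM was 27.2 and 22.2 in 2i+LIF, 14.8 and 9.94 in 2i, 23.5 and 18.3 in LIF+PD, and 11.4 and 9.62 in CH+LIF. The LIF+PD cultures overlapped those of 2i+LIF, while 2i and CH+LIF lay below both. Prdm14 was 2.00-fold lower without LIF (-0.96, SE 0.21, adjusted p = 0.0206) and 2.35-fold lower without PD (-1.16, SE 0.21, adjusted p = 0.00868), and without CH the difference was -0.23 (95% interval -0.73 to 0.26, adjusted p = 0.452). LIF+PD was higher than 2i by 0.73 (adjusted p = 0.0423) and CH+LIF was lower than LIF+PD by 0.92 (-0.92, adjusted p = 0.0159). The latter call was lost without replicate 2 of CH+LIF or replicate 1 of LIF+PD (adjusted p up to 0.0909). The call without LIF was lost when replicate 1 or replicate 2 of 2i+LIF or replicate 2 of 2i was left out, without a filter on low values and with only the 2 groups in the fit (adjusted p up to 0.112), the call without PD was lost without replicate 1 of 2i+LIF (adjusted p = 0.0570), and the call of LIF+PD against 2i was lost in 9 of 18 alternative analyses (adjusted p from 0.00512 to 0.196).

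Tcl1, the coactivator of Akt, lies on chromosome 12 (105216750 to 105222793, minus strand), and its upstream sequence is the second of those above. Its FPKM was 149 and 135 in 2i+LIF, 54.1 and 36.7 in 2i, 89.0 and 73.4 in LIF+PD, and 58.1 and 49.7 in CH+LIF. The 2i+LIF cultures were above all others, LIF+PD was next, and 2i and CH+LIF overlapped. The mean was 3.12-fold lower without LIF (-1.64, SE 0.19, adjusted p = 0.00177), 2.63-fold lower without PD (-1.38, SE 0.19, adjusted p = 0.00331) and 1.74-fold lower without CH (-0.80, SE 0.19, adjusted p = 0.0219). LIF+PD was higher than 2i by 0.84 (adjusted p = 0.0169), and CH+LIF and LIF+PD differed by -0.58 (95% interval -1.02 to -0.14, adjusted p = 0.0549), a difference past the threshold in 7 of the 18 alternatives (adjusted p from 0.0111 to 0.233). The call without CH was lost when either 2i+LIF culture or replicate 2 of LIF+PD was left out and when no filter on low values was applied (adjusted p up to 0.112). The call of LIF+PD against 2i was lost without replicate 2 of 2i, without replicate 1 of LIF+PD and with only the 2 groups in the fit (adjusted p up to 0.0952).

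Genes that act with, or are known targets of, Prdm14 and Dppa3 were listed as a group of 10, all of them tested. Relative to 2i+LIF, 4 were higher and 2 lower in 2i, 5 higher and 0 lower in LIF+PD, and 5 higher and 1 lower in CH+LIF. At an unadjusted p below 0.05 in limma, 1 was lower in LIF+PD. The shares called of all genes tested were 18.6%, 25.2% and 25.4%. The median log2 difference of the 10 genes was 0.31, 0.85 and 0.20, against 0.04, 0.03 and 0.01 over all genes tested. Dnmt3a, a de novo DNA methyltransferase, was at an FPKM of 6.50 and 6.33 in 2i+LIF, 63.5 and 51.2 in 2i, 43.4 and 31.9 in LIF+PD, and 21.04 and 17.0 in CH+LIF. Every culture outside 2i+LIF was thus above both 2i+LIF cultures, with log2 differences of 2.97, 2.37 and 1.43 (adjusted p = 0.000140, 0.000288 and 0.00240). Dnmt3l, the cofactor without catalytic activity that stimulates the de novo enzymes, was at 47.1 and 25.4 in 2i+LIF and between 140.2 and 190.5 in the other cultures (2.03, 2.32 and 2.14, adjusted p = 0.00217, 0.000929 and 0.00181).

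The other named genes of this list did not follow that pattern. Tet1, a methylcytosine dioxygenase, was at 21.2 and 23.8 in 2i+LIF, 20.2 and 29.5 in 2i, 56.0 and 41.3 in LIF+PD, and 58.6 and 54.1 in CH+LIF, and it was higher without CH (1.06, adjusted p = 0.00975) and without PD (1.29, adjusted p = 0.00526). The former call was lost without replicate 1 of 2i+LIF or of LIF+PD (adjusted p up to 0.0607). Fgfr2, an FGF receptor, was at 4.82 and 3.64 in 2i+LIF, 8.90 and 14.3 in 2i, 34.2 and 42.1 in LIF+PD, and 0.903 and 0.684 in CH+LIF. It was higher without LIF (1.24, adjusted p = 0.0114) and without CH (2.91, adjusted p = 0.000343) and lower without PD (-1.54, adjusted p = 0.00454). Prdm14 was low in both 2i and CH+LIF, in which Fgfr2 stood on opposite sides of its 2i+LIF level. In LIF+PD, Prdm14 was not called different from 2i+LIF (-0.23), while Dnmt3a and Dnmt3l were higher (2.37 and 2.32). Whether Prdm14 or Dppa3 acted on any of these genes in these cultures was not tested. The call of Fgfr2 without LIF was lost without replicate 2 of 2i+LIF and with only the 2 groups in the fit (adjusted p up to 0.0727).

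**Figure D3:**
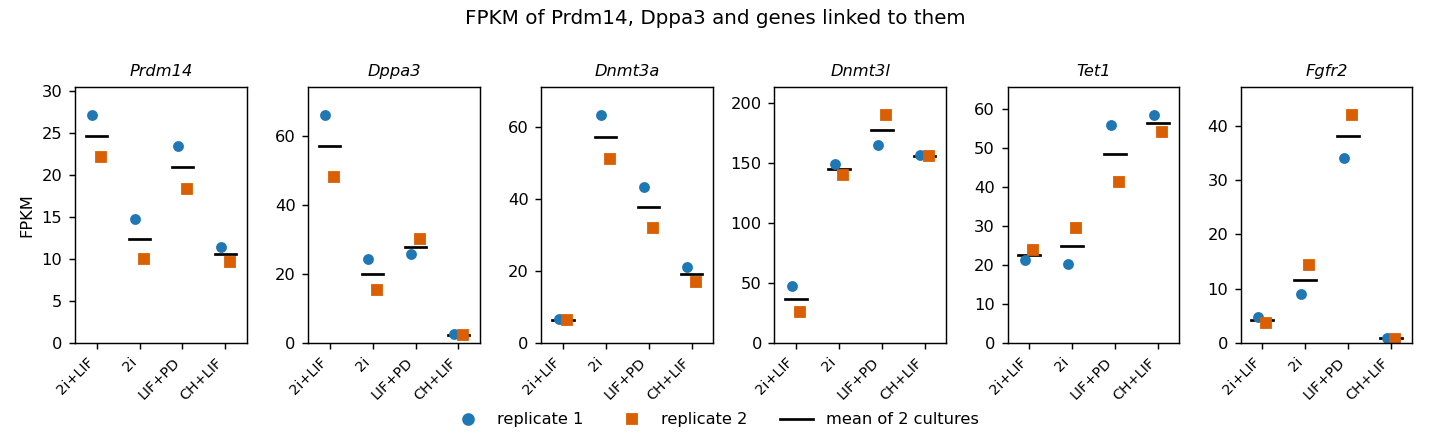
FPKM (vertical axes, each from 0 and with its own scale) of Prdm14, Dppa3 and 4 genes linked to them in the 4 conditions (horizontal axes). Points are single cultures and bars are means of 2. Dnmt3a and Dnmt3l were lowest in the 2i+LIF cultures, where Dppa3 was highest. The Prdm14 values of 2i+LIF and LIF+PD overlapped. Fgfr2 was between 34.2 and 42.1 in LIF+PD but under 1 in CH+LIF.

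Utf1 and Dppa4 went the opposite way, with both 2i+LIF cultures below the other 6, as for 11.9% of all genes tested, and with calls of a higher level in all 3 comparisons, as for 1.80%. Utf1 lies on chromosome 7 (139943789 to 139945112, plus strand), and its upstream sequence is the third of those above. Its FPKM was 90.7 and 65.5 in 2i+LIF, 279.6 and 263 in 2i, 287 and 235 in LIF+PD, and 320.5 and 371 in CH+LIF. The 6 cultures that lacked a component were all well above the 2i+LIF cultures, between 235 and 371. Among them, the 2 CH+LIF cultures were the highest. Utf1 was 3.47-fold higher without LIF (1.80, SE 0.17, adjusted p = 0.000802), 3.34-fold higher without CH (1.74, SE 0.17, adjusted p = 0.000666) and 4.43-fold higher without PD (2.15, SE 0.17, adjusted p = 0.000582). Between the 3 reduced media no difference was called, with intervals of -0.46 to 0.34 for LIF+PD against 2i, -0.05 to 0.75 for CH+LIF against 2i and 0.01 to 0.81 for CH+LIF against LIF+PD (adjusted p = 0.826, 0.181 and 0.112). All 3 calls against 2i+LIF held in each of the 18 alternative analyses.

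Dppa4 and Dppa2 are neighbours on chromosome 16, on the plus strand at 48283735 to 48294292 and 48310477 to 48319723, with 16.2 kb between them, and their products act as a pair on chromatin. The FPKM of Dppa4 was 24.5 and 20.4 in 2i+LIF, 51.3 and 41.9 in 2i, 35.6 and 32.7 in LIF+PD, and 51.8 and 44.96 in CH+LIF. Dppa4 was thus about as high in CH+LIF as in 2i, with overlapping cultures, and intermediate in LIF+PD. It was 2.08-fold higher without LIF (1.02, SE 0.14, adjusted p = 0.00334), 2.15-fold higher without PD (1.08, SE 0.14, adjusted p = 0.00264) and 1.52-fold higher without CH (0.59, SE 0.14, adjusted p = 0.0215). The last call was lost without replicate 2 of 2i+LIF or either LIF+PD culture (adjusted p up to 0.113). CH+LIF was above LIF+PD by 0.49 (adjusted p = 0.0348), a call lost without either culture of either group and without a filter on low values (adjusted p up to 0.171). Against 2i, LIF+PD was not called different (-0.43, 95% interval -0.76 to -0.11, adjusted p = 0.0597, past the threshold in 4 of the 18 alternatives with adjusted p from 0.0114 to 0.247), nor was CH+LIF (0.06, 95% interval -0.27 to 0.38, adjusted p = 0.798).

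The FPKM of Dppa2 was 40.5 and 21.2 in 2i+LIF, 76.2 and 57.7 in 2i, 50.8 and 32.4 in LIF+PD, and 55.3 and 45.1 in CH+LIF. The 2 cultures of 2i+LIF differed by more than those of any other condition in proportion. limma called no difference of Dppa2 in the 6 comparisons, and 1 had an unadjusted p below 0.05. Its log2 difference from 2i+LIF was 1.15 in 2i (SE 0.33, 95% interval 0.38 to 1.92, adjusted p = 0.0508), 0.46 in LIF+PD (95% interval -0.32 to 1.23, adjusted p = 0.347) and 0.75 in CH+LIF (95% interval -0.02 to 1.52, adjusted p = 0.139). The difference in 2i was past the threshold in 5 of the 18 alternative analyses, among them the one without replicate 1 of 2i+LIF (adjusted p from 0.00569 to 0.204 over the 18). The intervals allow changes as large as those of Dppa4. As a description over the 8 cultures, the profiles of Dppa2 and Dppa4 were the closest of all pairs among the 10 genes, with a root-mean-square difference of 0.27 on the log2 scale after each gene was centred on its mean, followed by Prdm14 and Tcl1 at 0.27 and Dppa5a and Tdh at 0.42. The spread of Dppa4 about its own mean was 0.45. Outside the 10, Tmem57, Dusp9 and Agtpbp1 were closer to Dppa4 than Dppa2 was, at 0.12, 0.13 and 0.13.

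Dppa2 and Dppa4 are also known as activators of Dux and of genes of the 2-cell embryo, which a small share of ESCs switches on. Of the 17 listed genes of that kind, such as the Zscan4 family, 13 were in the files and 0 passed the filter on low values, so no test was made for them. Zscan4d was the highest of them, at 0.231 and 0.636 in 2i+LIF, 1.37 and 0.944 in 2i, 0 and 0.0608 in LIF+PD, and 0.283 and 0.383 in CH+LIF. Members of this family are near-identical copies, so reads kept only where they map uniquely leave their levels uncertain.

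Tdh and Fbxo15 were the genes whose level without CH stood apart, in opposite directions. Tdh, which starts the breakdown of threonine to glycine and acetyl-CoA on which mouse ESCs depend, lies on chromosome 14 (63492347 to 63509092, minus strand). Its FPKM was 685 and 621 in 2i+LIF, 665 and 646 in 2i, 328 and 272 in LIF+PD, and 609 and 612 in CH+LIF. The 6 cultures with CH lay between 609 and 685, and both cultures without CH lay far below. Tdh was 2.18-fold lower in LIF+PD than in 2i+LIF (-1.12, SE 0.11, adjusted p = 0.000627), 2.18-fold lower than in 2i (-1.13, SE 0.11, adjusted p = 0.000535) and 2.03-fold lower than in CH+LIF (a difference of 1.03 for CH+LIF against LIF+PD, SE 0.11, adjusted p = 0.000699). All 3 calls held in the 18 alternative analyses. Without LIF the difference from 2i+LIF was 0.01 (95% interval -0.25 to 0.26, adjusted p = 0.975), and without PD it was -0.09 (95% interval -0.35 to 0.16, adjusted p = 0.555).

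Of 7 other genes of threonine and glycine breakdown, all tested, 1 was higher and 2 lower in 2i, 1 higher and 3 lower in LIF+PD, and 2 higher and 2 lower in CH+LIF, relative to 2i+LIF, beside 18.6%, 25.2% and 25.4% of all genes called in either direction. Their median log2 difference was 0.00272, -0.06 and 0.13. Gcat, which takes the product of Tdh to glycine and acetyl-CoA, was at 75.1 and 70.7 in 2i+LIF, 48.4 and 47.8 in 2i, 34.0 and 31.1 in LIF+PD, and 53.2 and 54.3 in CH+LIF. Gcat was therefore lowest in LIF+PD, as Tdh was, but it was also lower without LIF, where Tdh was not called: its differences from 2i+LIF were -0.59 in 2i, -1.14 in LIF+PD and -0.43 in CH+LIF (adjusted p = 0.00341, 0.000229 and 0.00942). The last of these was lost on rescaling to TPM and without replicate 1 of 2i+LIF or of CH+LIF (adjusted p up to 0.0979).

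Among the 4 genes of the glycine cleavage system, 1 was higher and 1 lower in CH+LIF than in 2i+LIF, while Gcsh and Dld were not called there (-0.18 and 0.26, adjusted p = 0.194 and 0.110). Gldc, its decarboxylase, was at 64.7 and 64.0 in 2i+LIF, 61.7 and 67.4 in 2i, 72.3 and 70.8 in LIF+PD, and 154.9 and 164 in CH+LIF, a rise of 1.30 without PD (adjusted p = 0.000269). Amt, its aminomethyltransferase, was at 99.2 and 108.4 in 2i+LIF and at 71.8 and 67.2 in CH+LIF, a fall of 0.57 (-0.57, adjusted p = 0.00413). Amt was also higher in 2i (0.31, adjusted p = 0.0432), a call that 12 of the 18 alternative analyses lost (adjusted p up to 0.199). Shmt1, which interconverts serine and glycine in the cytosol, was lower in 2i (-0.44, adjusted p = 0.0464) and in LIF+PD (-0.52, adjusted p = 0.0217). It lost the former call in 11 and the latter in 3 of the alternatives, those without replicate 1 of 2i+LIF or without either LIF+PD culture (adjusted p up to 0.212 and 0.118).

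**Figure D4:**
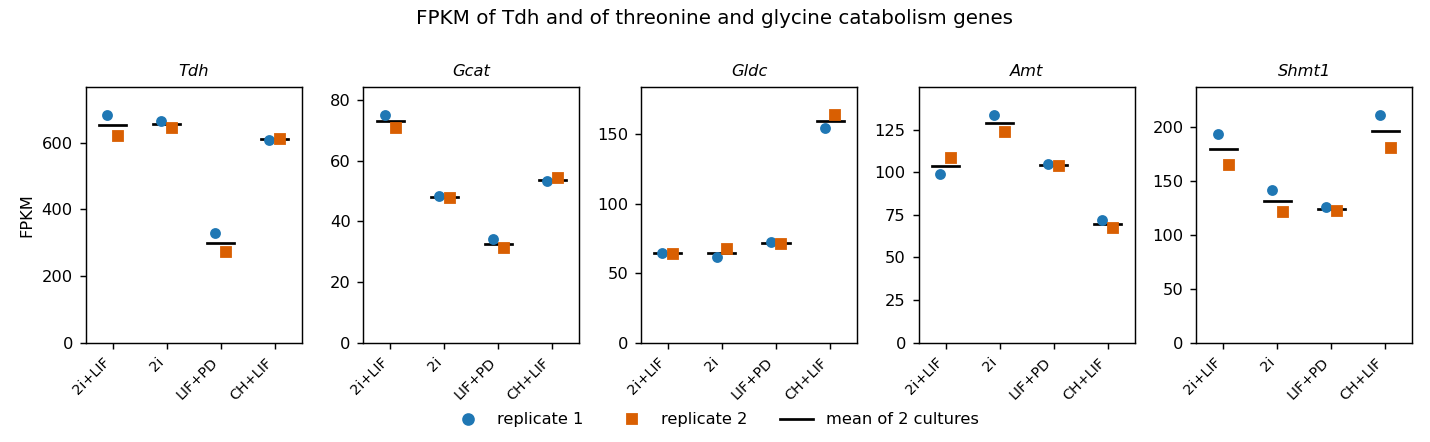
FPKM (vertical axes, each from 0 and with its own scale) of Tdh and of 4 genes of threonine and glycine breakdown in the 4 conditions (horizontal axes). Points are single cultures and bars are means of 2. Tdh was at 272 and 328 in LIF+PD and at 609 or more elsewhere, Gcat was also lowest in LIF+PD, and Gldc was highest in CH+LIF.

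Fbxo15, an F-box protein of the SCF type of ubiquitin ligase and a classical reporter gene for the pluripotent state, lies on chromosome 18 (84935158 to 84981376, plus strand). Its FPKM was 149.6 and 141 in 2i+LIF, 105 and 85.7 in 2i, 272 and 282 in LIF+PD, and 120.4 and 99.3 in CH+LIF. The LIF+PD cultures were above all others, and the cultures of 2i and CH+LIF overlapped below those of 2i+LIF. Fbxo15 was 1.91-fold higher without CH (0.93, SE 0.13, adjusted p = 0.00271) and 1.53-fold lower without LIF (-0.61, SE 0.13, adjusted p = 0.0174), and without PD its difference was -0.40 (95% interval -0.70 to -0.11, adjusted p = 0.0558), past the threshold in 6 of the 18 alternatives (adjusted p from 0.0166 to 0.232). LIF+PD was 2.91-fold above 2i (1.54, adjusted p = 0.000321) and 2.52-fold above CH+LIF (-1.33 for CH+LIF against LIF+PD, adjusted p = 0.000480). The call without LIF was lost when either 2i+LIF culture or replicate 2 of 2i was left out (adjusted p up to 0.0924). Timm21, a gene of mitochondrial protein import, lies on the opposite strand within the span of Fbxo15. The methods name a reverse-strand setting for the authors' gene counts. Whether the FPKM values were also made by strand is not given in the sources used here. Timm21 was low, with mean FPKM of 3.28, 7.76, 2.18 and 12.5 in 2i+LIF, 2i, LIF+PD and CH+LIF.

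Zfp42 and Dppa5a varied least in proportion between conditions. Zfp42 lies on chromosome 8 (43295068 to 43307009, minus strand), its upstream sequence is the first of those above, and its locus carries the GFP reporter of this line. Its FPKM was 217 and 193 in 2i+LIF, 203 and 190.3 in 2i, 253 and 259.7 in LIF+PD, and 258 and 238 in CH+LIF. The 4 cultures with LIF but only 1 inhibitor lay above the 4 cultures with both inhibitors, by small margins. Zfp42 was 1.25-fold higher without CH (0.32, SE 0.09, adjusted p = 0.0381), and without PD its difference was 0.27 (95% interval 0.06 to 0.48, adjusted p = 0.0650), past the threshold in 3 of the 18 alternatives (adjusted p from 0.00416 to 0.275). Without LIF the difference was -0.06, and its 95% interval of -0.27 to 0.15 excludes changes of the size seen for Dppa3, Tcl1 or Utf1. Against 2i, LIF+PD was higher by 0.38 (adjusted p = 0.0211) and CH+LIF by 0.33 (adjusted p = 0.0372). The call without CH was lost in 6 alternatives, among them the omission of either culture of either group (adjusted p up to 0.182). The calls against 2i were lost in 3 alternatives, without replicate 2 of 2i or either LIF+PD culture, and in 8, among them the omission of either culture of either group (adjusted p up to 0.101 and 0.169).

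Dppa5a, the most abundant of the 10 genes, lies on chromosome 9 (78367052 to 78368177, minus strand). Its FPKM was 2195 and 1739.7 in 2i+LIF, 2419 and 1653 in 2i, 1597 and 1221 in LIF+PD, and 1329 and 1273 in CH+LIF. The cultures without CH or without PD all lay below those of 2i+LIF and 2i, but the replicates of 2i were far apart. limma called no difference of Dppa5a in the 6 comparisons, and 3 had an unadjusted p below 0.05. The differences from 2i+LIF were 0.03 in 2i (95% interval -0.48 to 0.54, adjusted p = 0.936), -0.48 in LIF+PD (95% interval -0.99 to 0.02, adjusted p = 0.145) and -0.59 in CH+LIF (95% interval -1.10 to -0.08, adjusted p = 0.0889). The level itself is uncertain, since the FPKM of Dppa5a was 1.46 to 1.51 times the midpoint of its own deposited bounds and above the upper bound in all 8 cultures. FPKM was also outside its own bounds in all cultures for Zfp42, Tdh, Utf1 and Fbxo15, by smaller ratios of 1.11 to 1.19, and for this reason the bounds were not used as errors.

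The reduced media were also compared with each other. LIF+PD against 2i gave 5 calls among the 10 genes, higher for Zfp42, Prdm14, Tcl1 and Fbxo15 and lower for Tdh, against 25.1% of all genes tested (14.0% higher, 11.1% lower). CH+LIF against LIF+PD gave 5 calls, higher for Dppa4 and Tdh and lower for Dppa3, Prdm14 and Fbxo15, against 30.4% (12.6% higher, 17.8% lower). CH+LIF against 2i gave 2 calls, Dppa3 lower and Zfp42 higher, against 23.9% (10.6% higher, 13.3% lower). In the same order, the groups did not overlap for 9, 7 and 6 of the 10 genes, against 62.7%, 68.3% and 63.3%. The median absolute difference of the 10 genes was 0.61, 0.53 and 0.30 in these comparisons, and over all genes tested it was 0.27, 0.29 and 0.27. In total 30 of the 60 comparisons of a gene were called, and 17 of these calls held in all 18 alternative analyses.

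The position of 2i+LIF among the 4 conditions differed from gene to gene. By mean FPKM, 2i+LIF was first for Dppa3, Prdm14 and Tcl1, next for Dppa5a, Tdh and Fbxo15, last but 1 for Zfp42 and last for Dppa2, Dppa4 and Utf1. Most steps between neighbours in these orders were not called. In several of the uncalled steps the cultures did not overlap, such as from 2i to LIF+PD for Dppa4. The called steps were from 2i+LIF to LIF+PD and from 2i to CH+LIF for Dppa3, from LIF+PD to 2i for Prdm14, from 2i+LIF to LIF+PD for Tcl1, from CH+LIF to LIF+PD for Tdh, from LIF+PD to 2i+LIF for Dppa4, Utf1 and Fbxo15. For Dppa2, Dppa5a and Zfp42 no step between neighbours was called.

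Lists of related genes were set beside the 10. Of the 12 core network components, 0 were higher and 6 lower in 2i, 2 higher and 5 lower in LIF+PD, and 1 higher and 4 lower in CH+LIF, relative to 2i+LIF, with median log2 differences of -0.43, -0.28 and -0.05, against 18.6%, 25.2% and 25.4% of all genes called in either direction. At an unadjusted p below 0.05 in limma, 0 were higher in 2i as well. The largest called differences were those of Gbx2 (-2.17 in 2i, -2.12 in LIF+PD and 0.71 in CH+LIF, adjusted p = 0.000229, 0.000221 and 0.0140), Klf4 (-2.00 in 2i and -0.85 in LIF+PD, adjusted p = 0.000140 and 0.00306), Stat3 (-1.95 in 2i, adjusted p = 0.00310) and Tcf7l1 (0.53 in LIF+PD and -1.55 in CH+LIF, adjusted p = 0.0120 and 0.000364). The calls of Gbx2 in CH+LIF and of Tcf7l1 in LIF+PD were each lost without either 2i+LIF culture, the former also without replicate 2 of CH+LIF and the latter without replicate 1 of LIF+PD (adjusted p up to 0.0797 and 0.0675).

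Of 12 other ESC genes, 3 were higher and 4 lower in 2i, 1 higher and 1 lower in LIF+PD, and 5 higher and 2 lower in CH+LIF, with median differences of 0.05, 0.07 and 0.07. Of all genes tested, 18.6%, 25.2% and 25.4% were called, and the 2 calls among only 12 genes in LIF+PD cannot be set apart from that share. Lin28a, an RNA-binding protein that blocks let-7 maturation, was at 31.3 and 29.4 in 2i+LIF, 92.9 and 101.9 in 2i, 81.5 and 102.8 in LIF+PD, and 159 and 158 in CH+LIF, higher in all 3 (1.65, 1.56 and 2.35, adjusted p = 0.000263, 0.000288 and 0.000174). Klf5 was lower in 2i (-1.28, adjusted p = 0.000703) and higher in CH+LIF (0.58, adjusted p = 0.0131), Tdgf1, a Nodal co-receptor, was lower in 2i (-1.17, adjusted p = 0.0125), and L1td1, an RNA-binding protein, was higher in CH+LIF (0.92, adjusted p = 0.00797). The call of Klf5 in CH+LIF was lost without either 2i+LIF culture or replicate 2 of CH+LIF, that of Tdgf1 without replicate 1 of 2i+LIF and with only the 2 groups in the fit, and that of L1td1 without replicate 2 of 2i+LIF or replicate 1 of CH+LIF (adjusted p up to 0.0659, 0.0762 and 0.0524).

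Of 8 genes of the later epiblast, 7 were tested (all but Fgf5). In 2i 5 were higher and 1 lower, in LIF+PD 4 higher and 0 lower, and in CH+LIF 2 higher and 1 lower, and at an unadjusted p below 0.05 in limma 0 were lower in LIF+PD as well. The shares of all genes called were 18.6%, 25.2% and 25.4%. Otx2, which drives the exit from the naïve state, was at 2.44 and 1.80 in 2i+LIF, 13.2 and 16.4 in 2i, 50.3 and 49.2 in LIF+PD, and 2.15 and 2.11 in CH+LIF. Otx2 was thus raised in 2i and LIF+PD (2.34 and 4.03, adjusted p = 0.000169 and 2.27e-05) and close to its 2i+LIF level in CH+LIF, where Dppa3 was lowest. Lef1, a Wnt effector, was higher in 2i (2.49, adjusted p = 0.000712) and CH+LIF (1.88, adjusted p = 0.00219). Zic2 was higher in 2i (1.47, adjusted p = 0.00136) and Pou3f1 in LIF+PD (1.61, adjusted p = 0.00234), where Zic2 was also called (0.56, adjusted p = 0.0402), although 8 alternatives lost that call (adjusted p up to 0.191).

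Of 7 partners or relatives of the gene products (Akt kinases bound by Tcl1, the SCF subunits that F-box proteins join, and the Yy1 and Yy2 relatives of Zfp42), 0 were higher and 1 lower in 2i, 0 higher and 1 lower in LIF+PD, and 1 higher and 0 lower in CH+LIF. At an unadjusted p below 0.05 in limma, 0 were higher in 2i, 1 was higher in LIF+PD and 0 were lower in CH+LIF. With only 7 genes, the 1 call in each of 2i, LIF+PD and CH+LIF cannot be set apart from the background of 18.6%, 25.2% and 25.4%. Akt2 was at 80.9 and 71.5 in 2i+LIF, 47.2 and 46.9 in 2i, 53.9 and 54.5 in LIF+PD, and 78.6 and 70.2 in CH+LIF, lower in 2i (-0.68, adjusted p = 0.00338) and LIF+PD (-0.48, adjusted p = 0.0102). Yy1 was higher in CH+LIF (0.28, adjusted p = 0.0479), a call that 10 of the 18 alternatives lost (adjusted p up to 0.224). The call of Akt2 in LIF+PD was lost without replicate 1 of 2i+LIF or of LIF+PD (adjusted p up to 0.0647).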

How the data were processed

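For each of the 8 cultures the authors deposited FPKM values per gene with a lower and an upper bound. Single-end reads had been mapped by them to mm10 with TopHat2 and Ensembl 75 annotation, and the submitters' processing notes also name Cufflinks and Cuffdiff. The sample records name polyA RNA as the input of the libraries, and the methods name rRNA depletion. Values of repeated Ensembl identifiers (22 entries) were added up, and deposited starts, which count from 0, were raised by 1.

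Groups were taken from the sample titles, and nothing states whether the 2 cultures of a condition were derived separately, so p-values measure only the spread between them. Genes that reached an FPKM of 1 in 2 or more cultures were tested on log2(FPKM + 1) with limma 3.58.1 in R 4.3.3 (mean-variance trend, 8 cultures in a single fit, 4 residual degrees of freedom) at a Benjamini-Hochberg adjusted p below 0.05. An exact permutation test of 2 against 2 cultures cannot go below p = 0.333. FPKM values are not counts, so the count test of the authors could not be repeated, and FPKM levels depend on their transcript lengths and library totals. Depth is unknown, and no counting error is given. On simulated data for 2i against 2i+LIF with 12927 genes, 63.3% of changes of 0.5 on the log2 scale and 100% of changes of 1 or more were recovered. These shares do not hold for genes with a wide spread. In this comparison Dppa2 differed by 1.15 (SE 0.33) and was not called by limma (adjusted p = 0.0508). The 10 genes and the lists were chosen with earlier results of these data known. A gene of the list of partners and relatives is not reported here. From each list up to 4 genes with the largest called differences from 2i+LIF were named. The alternatives were other pseudocounts (0.1 and 5), filters and scalings, a replicate block, smaller fits, the omission of each culture and, chosen after seeing the data, the midpoint of the deposited bounds. Upstream sequences were from RefSeq (GRCm38.p6), with 3 of 10 genes matched. Figures were drawn with matplotlib 3.10.9 under Python 3.11.15.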

Additional observations from a re-analysis of the deposited data

How the results depend on the processing

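Of the 10 members, 6 were called different in 2i against 2i+LIF, and the count stayed between 4 and 7 over the 18 alternatives. In LIF+PD against 2i+LIF the count for the 10 members was 7, and 3 to 7 when single cultures were left out. In CH+LIF against 2i+LIF it was 5, and in CH+LIF against 2i it was 2, falling to 1 without a filter on low values and with only the groups compared in the fit, and to between 1 and 2 when single cultures were left out. In LIF+PD against 2i it was 5, falling to 3 with only the groups compared and to between 2 and 6 without single cultures, and in CH+LIF against LIF+PD it was 5 and between 3 and 6. Fewer cultures in the fit leave fewer degrees of freedom, and a lone culture is then assumed to vary like the other groups. Rescaling to TPM, which moved the median of all genes by 0.06 in 2i, 0.12 in LIF+PD and 0.18 in CH+LIF relative to 2i+LIF, changed the split of higher and lower calls of the 10 members to 4 and 3 in CH+LIF against 2i+LIF (from 2 and 3), to 4 and 2 in LIF+PD against 2i (from 4 and 1) and to 2 and 1 in CH+LIF against 2i (from 1 and 1), and quantile normalization also gave 4 and 2 in LIF+PD against 2i. Over all genes, TPM moved the share of higher calls from 47.9% to 74.1% in CH+LIF and from 58.6% to 74.8% in LIF+PD against 2i+LIF, and from 44.5% to 64.1% in CH+LIF against 2i, so the background shares by direction depend on the scaling. No called difference changed sign.

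Whether replicate numbers pair the cultures is not settled. Across all genes, the correlation of the deviations of same-numbered cultures was -0.0283 to 0.0925 over the 6 pairs of conditions. Yet replicate 1 was the higher in all 4 conditions for 5 of the 10 members, against 10.6% of all genes. It was the higher for 10, 10, 7 and 8 members in 2i+LIF, 2i, LIF+PD and CH+LIF. The sum of FPKM was also larger in replicate 1 in each condition. With a replicate block the counts of the 10 members were 9 in CH+LIF against 2i+LIF and 8 in LIF+PD against 2i, no call was lost and 11 were gained, among them Dppa2 in 2i (adjusted p = 0.00569) and Dppa5a in LIF+PD and CH+LIF (adjusted p = 0.0367 and 0.0208).

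Signs reversed only among differences that were not called. Against 2i+LIF, Dppa5a in 2i became -0.00661 with size factors and ranged from -0.24 to 0.31 without single cultures, Zfp42 in 2i became 0.00771 in TPM and ranged from -0.143 to 0.0287, and Tdh in 2i became -0.0329 with size factors and -0.00365 with quantile normalization and ranged from -0.0633 to 0.0770. Tdh in CH+LIF became 0.11 in TPM and 0.0127 with quantile normalization, and against 2i 0.0371 and 0.0164. Utf1 in LIF+PD against 2i became 0.00996 in TPM and ranged from -0.203 to 0.0816. In CH+LIF against 2i, leaving out cultures gave -0.0861 to 0.199 for Dppa4, -0.455 to 0.0702 for Prdm14 and -0.00879 to 0.54 for Tcl1. In CH+LIF against LIF+PD it gave -0.0245 to 0.609 for Dppa2, -0.296 to 0.0916 for Dppa5a and -0.11 to 0.00799 for Zfp42, which was 0.0173 in TPM. FPKM gives no read depth, so no limit of detection is stated.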

Other observations

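For the 7 genes that passed the F test and whose condition means spanned at least 1 on the log2 scale, the genes of most similar profile were found among 8801 tested genes with a mean FPKM of at least 5, by the root-mean-square difference of log2(FPKM + 1) over the 8 cultures after each gene was centred. Nearest to Tdh were Actg1 (0.10), Asns (0.10) and Chfr (0.10), of which Asns, asparagine synthetase, had mean FPKM of 430.1, 463, 201 and 416 in 2i+LIF, 2i, LIF+PD and CH+LIF. Nearest to Utf1 were Pdzd4 (0.24), Lin28a (0.25) and Pkp2 (0.29). Nearest to Fbxo15 were Cndp2 (0.15), Wdr45 (0.16) and Hdac6 (0.16), to Prdm14 Cfp (0.15), Ptgfrn (0.15) and Jam2 (0.16), to Tcl1 Fam107b (0.19), Cstb (0.21) and Marc2 (0.23), and to Dppa4 Tmem57 (0.12), Dusp9 (0.13) and Agtpbp1 (0.13). Dppa3 had no close companion: Spic was nearest at 0.62, then Spats2l and Lrrc15 at 0.73, against 1.53 for the spread of Dppa3 about its own mean. Spic had mean FPKM of 14.3, 14.1, 11.02 and 1.17 in 2i+LIF, 2i, LIF+PD and CH+LIF, so it was low in CH+LIF as Dppa3 was, without the lower levels in 2i. With a pseudocount of 5, none (0) of these 3 companions of Dppa3 and 1 of the 3 of Utf1 were among the nearest 3.

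Genes within 100 kb of the 10 were listed from the deposited coordinates. Dppa3 had 12 such neighbours, of which 7 were tested. Gdf3, 16.3 kb away, was at mean FPKM of 74.9, 74.98, 69.4 and 50.7 in 2i+LIF, 2i, LIF+PD and CH+LIF, Nanog, 77.2 kb away, at 513, 446, 497 and 294, and Slc2a3, 97.5 kb away, at 393, 409.9, 219 and 209.8. All 3 were lower without PD (-0.55, -0.80 and -0.90, adjusted p = 0.0125, 0.00366 and 0.00140), as Dppa3 was, and Slc2a3 also without CH (-0.84, adjusted p = 0.00117). The call of Gdf3 was lost without replicate 1 of 2i+LIF or replicate 2 of CH+LIF (adjusted p up to 0.0672). Gm10420, 65.7 kb away, was lower without CH (-0.89, adjusted p = 0.0156), a call lost without replicate 1 of 2i+LIF or of LIF+PD (adjusted p up to 0.0875), and Mfap5, Apobec1 and Gm10224 were not called in these comparisons. Beside Tdh, Fam167a at 26.8 kb was at mean FPKM of 0.276, 0.0564, 3.37 and 0.104, higher in LIF+PD (1.77, adjusted p = 0.000705) where Tdh was lower. Timm21, within the span of Fbxo15, was higher in 2i (1.01, adjusted p = 0.0218, lost in 5 alternatives with adjusted p up to 0.115) and in CH+LIF (1.65, adjusted p = 0.00318), and in LIF+PD, where Fbxo15 was highest, its difference was not called (-0.43, adjusted p = 0.204).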
